A study of Mus musculus with 2 samples.

Results

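The 10 genes described here form the STAT5 arm of cytokine signalling and its feedback: the kinases Jak1 and Jak3, the transcription factors Stat5a and Stat5b, the feedback inhibitors Cish, Socs1, Socs2 and Socs3, and the kinases Pim1 and Pim2. They were chosen by name, and every probe that the platform annotation pairs with one of them was used, which gave 15 of the 25697 probes on the array. Gene expression was measured on Illumina mouse BeadChips, where each transcript is read as the brightness of beads that carry a matching oligonucleotide. The cells were splenic regulatory T cells, CD4 T cells that hold immune responses in check, sorted for surface CD4, CD25 and GITR. One array held cells from wild-type C57BL/6 mice aged 6 weeks, and the other held cells from Bach2 KO mice on the C57BL/6 background aged 7 weeks. The 2 arrays thus also differed in age. Both samples were labelled male, and how many animals each came from is not stated.

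Cytokines that signal through the common gamma chain, such as interleukin 2, bring the kinases Jak1 and Jak3 together at the receptor, and these phosphorylate STAT5, which then enters the nucleus. Regulatory T cells carry high levels of the interleukin 2 receptor alpha chain (CD25) and depend on interleukin 2 and STAT5 to maintain Foxp3. STAT5 induces Cish, Socs proteins and Pim kinases. Cish and the Socs proteins damp the receptor or its kinases, and the Pim kinases favour survival and growth. Bach2, the deleted gene, encodes a lymphocyte repressor of the bZIP family of transcription factors.

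The promoters are shown for the 2 listed genes whose window held the STAT-type motif TTCNNNGAA, with the matches in capitals. The sequences are RefSeq's on build GRCm38.p6, written 5′ to 3′ on the gene's own strand. That of Cish, chr9:107296409-107296678 on the plus strand, runs from 250 bases before the annotated start to 20 bases after it. That of Socs3, chr11:117969367-117969616 on the minus strand, covers the 250 bases before the start.
Cish: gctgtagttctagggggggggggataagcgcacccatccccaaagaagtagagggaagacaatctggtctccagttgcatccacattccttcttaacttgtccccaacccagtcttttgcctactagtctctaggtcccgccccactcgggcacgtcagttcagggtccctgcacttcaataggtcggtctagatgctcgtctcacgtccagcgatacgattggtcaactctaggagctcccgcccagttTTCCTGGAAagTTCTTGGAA
Socs3: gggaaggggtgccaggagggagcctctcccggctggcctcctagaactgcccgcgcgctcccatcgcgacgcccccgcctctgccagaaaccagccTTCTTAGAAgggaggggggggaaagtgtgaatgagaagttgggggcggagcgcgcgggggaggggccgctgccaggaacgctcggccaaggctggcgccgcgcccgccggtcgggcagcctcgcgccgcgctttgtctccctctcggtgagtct

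The Cish window held 2 matches, which start at bases 1 and 12 after the annotated start, and the Socs3 window held 1, which starts 154 bases before it. The motif reads the same on both strands. Of all 32851 promoter windows of the same length (250 bases before to 50 after a start), 8.30% held at least 1 match and 0.457% held at least 2. The table held 12 windows for 9 of the 10 genes, and Socs2 was not among them. None of the 12 held TGANTCA, the core shared by AP-1 and Bach sites, or the Maf recognition element, a longer site that contains that core. These were present on either strand in 7.81% and 0.423% of all windows. Cish and Socs3, the genes with a STAT match, lay on opposite sides of 0 on the arrays, as described next. A match describes the sequence only, and neither binding nor a link between matches and expression was tested.

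With 1 array per genotype no difference has a replicate check, and no SE or p-value can be given. The available measure of scatter was how far probes of 1 gene disagree in their log2 difference, an SD of 0.23 over the 1734 genes that had more than 1 probe detected on both arrays (called the SD between probes here). It was 0.29 for the 453 of these genes with a mean log2 intensity under 8, 0.22 for the 835 from 8 to 10, and 0.16 for the 446 at 10 or above. This SD does not cover error shared by all probes of a gene, and 6 of the 10 listed genes had a single probe. Multiples of it given below use the 0.23 over all intensities. They thus run high for dim genes such as Pim1 and low for bright ones such as Cish. A probe counted as detected where its detection p-value lay below 0.01. By this threshold 10 of the 15 probes were detected on both arrays, 2 in the knockout only and 3 on neither, so that 9 of the 10 genes entered the comparison. All log2 differences are of normalized intensity, knockout minus wild type.

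Transcripts of T cells and regulatory T cells were present on both arrays, and the sex-linked genes went against 1 label. All 7 T cell markers on the array were detected and none differed by 1.5-fold. All 7 regulatory T cell markers were detected, with Foxp3 at -0.10 at its brightest probe and -0.37 and 0.11 at the others. Gpr83 (-1.13) and Izumo1r (-0.67) were lower by more than 1.5-fold, as were 6.77% of all genes. The other Izumo1r probes differed by -0.76 and -0.11, and with detected probes averaged 1 of the 7 markers was lower. Xist, an RNA made in female cells, was detected only on the array labelled Bach2 KO, at a deposited intensity of 393.4. The Y-linked genes Kdm5d (826.9 against 120.0) and Eif2s3y (3451 against 982.8) were dimmer there though still detected, and Uty (98.85 against 38.90) was detected in wild type only, while both samples were labelled male. Bach2 itself was not analysed here, so the deletion was not checked. Genotype, age and the sample differences seen in these sex-linked genes cannot be told apart.

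Among the feedback inhibitors, Socs2 was higher and Socs3 was lower in the knockout, by like amounts in opposite directions, while Socs1 was nearly equal. Across the 9 detected genes, Socs2 and Pim1 (2 genes, 22.2%) were higher in the knockout by at least 1.5-fold, and Socs3 (1 gene, 11.1%) was lower by at least as much. Of all 7611 genes compared, 8.15% were higher and 6.77% lower by that amount. None of the 9 reached 2-fold in either direction, against 3.27% higher and 1.55% lower of all genes. Socs2 lay near that line, at 0.96, at 1.0 with median scaling and at 2.04-fold in the deposited intensities. The median difference of the 9 was 0.04, and that of all genes -0.02. These shares rest on 2 genes and 1 gene, so nothing particular to the listed genes was read from them.

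**Figure D1:**
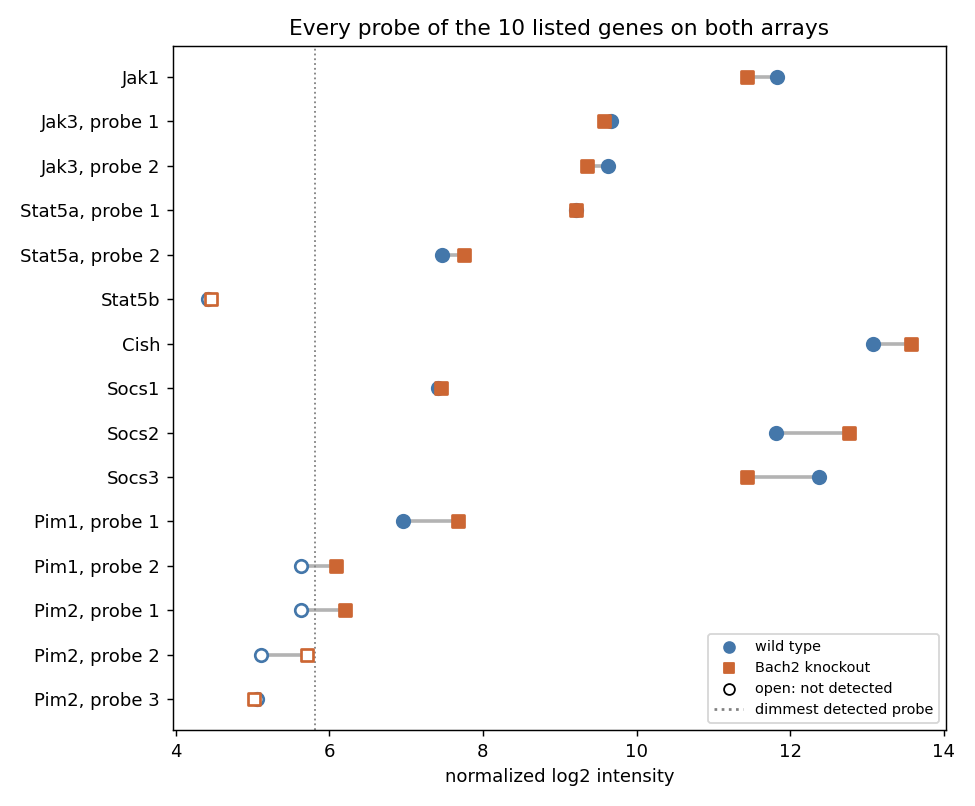
Normalized log2 intensity (horizontal axis) of each of the 15 probes of the 10 listed genes on the wild-type array (circles) and the Bach2 knockout array (squares), with open symbols where a probe was not detected and a dotted line at the dimmest detected probe of the knockout array (5.81). Probes of a gene are numbered from the brightest, and levels of different probes are not comparable. The gaps at Socs2 (11.81 to 12.76) and Socs3 (12.38 to 11.44) are the widest and run in opposite directions.

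Socs2, which is best known for restraining growth hormone signalling through STAT5 and is itself a STAT5-induced gene, had a deposited intensity of 3490 in wild type and 7135 in the knockout at its 1 probe (ILMN_2628178). After normalization its difference was 0.96, or 1.94-fold higher in the knockout. This was 4.2 times the SD between probes. It was the 237th highest difference of the 6994 genes detected on both arrays.

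Socs3, an inhibitor that binds the gp130 receptor chain and blocks JAK kinases and that is induced mainly through STAT3, gave 5203 in wild type and 2820 in the knockout at its 1 probe (ILMN_2618176). Its difference was -0.93, or 1.91-fold lower in the knockout, which was 4.1 times the SD between probes. It was the 130th lowest of the 6994 genes.

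Both genes were bright on the array, where large differences were less common. Of the 1470 genes with a mean log2 intensity of at least 11, a limit chosen after the values were seen, 3.40% were higher in the knockout by at least 1.5-fold and 2.79% were lower by as much. Within that set Socs2 had the 16th highest difference and Socs3 the 10th lowest.

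Cish, the inhibitor known to be induced by STAT5 and to restrain interleukin 2 and T cell receptor signalling, lay above its wild-type value in the knockout but short of 1.5-fold. Its 1 probe (ILMN_2718330) gave 8335 in wild type and 12460 in the knockout, a difference of 0.50 or 1.41-fold. This was 2.2 times the SD between probes over all intensities, where that of genes at 10 or above in log2 intensity was 0.16. The difference was the 74th highest of the same 1470 bright genes. Socs1, which inhibits JAK kinases directly, gave 153.6 and 161.9, a difference of 0.04, which is within the SD between probes.

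**Figure D2:**
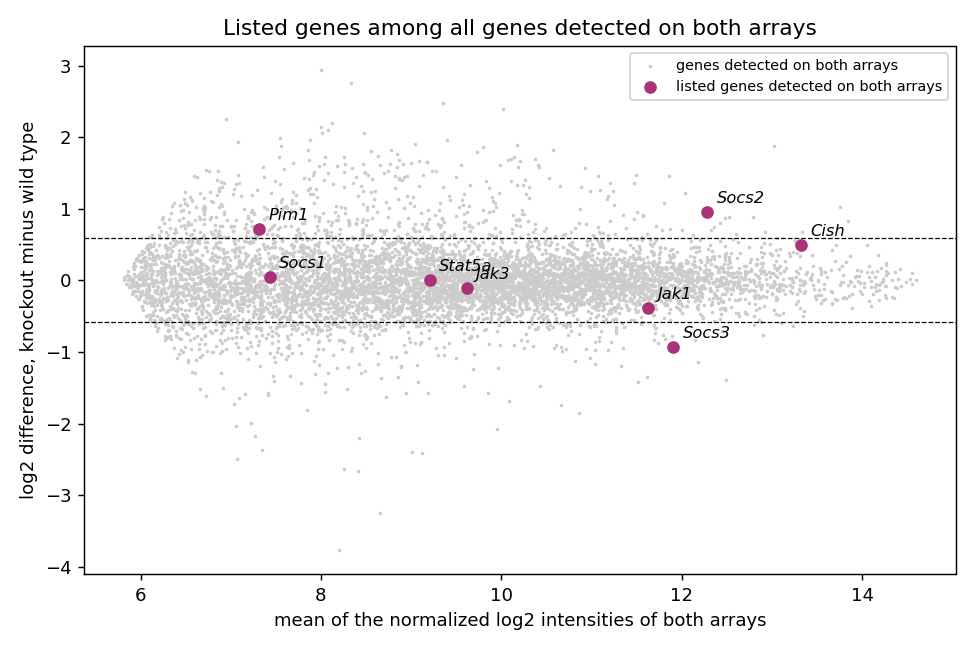
Log2 difference, knockout minus wild type (vertical axis), against the mean normalized log2 intensity of both arrays (horizontal axis) for the 6994 genes detected on both arrays (grey) and the 8 listed genes among them (coloured). Dashed lines mark 1.5-fold. Socs2 (0.96) and Socs3 (-0.93) lie at the edges of the cloud at their intensity, whereas Stat5a, Socs1 and Jak3 lie near 0.

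None of the kinases at the receptor reached 1.5-fold, and nor did Stat5a. Jak1, the kinase bound to the interleukin 2 receptor beta chain and to many other cytokine receptors, gave 3550 in wild type and 2809 in the knockout, a difference of -0.39 or 1.31-fold lower, at its 1 probe. This was 1.7 times the SD between probes, and the 111th lowest of the 1470 bright genes. Jak3, which binds the common gamma chain, was within 1.5-fold at both probes. Its brighter probe gave 787.8 and 758.7 (-0.11) and the other 765.8 and 647.4 (-0.28). Both lay below 0, by 0.5 times the SD between probes at the brighter one and 1.2 times at the other.

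Stat5a had 2 probes, both detected on both arrays. The brighter gave 569.4 in wild type and 584.4 in the knockout (0.01), and the dimmer 159.2 and 203.2 (0.28), so neither approached 1.5-fold. Stat5b, the close paralog that lies beside Stat5a on chromosome 11, was not detected by its 1 probe. Its deposited intensity was below 0 on both arrays (-17.11 and -13.04, detection p-values 0.984 and 0.926). No fold is given for it, and a single undetected probe does not show that the transcript was absent. How far a probe of either paralog also binds the other's transcript was not tested.

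Of the Pim kinases, Pim1 was higher in the knockout at both probes, and Pim2 was near the detection limit. The brighter Pim1 probe (ILMN_2702406) gave 107.4 in wild type and 191.4 in the knockout, a difference of 0.71 or 1.64-fold. This was 3.1 times the SD between probes over all intensities, where that of genes under 8 in log2 intensity was 0.29. The dimmer Pim1 probe was undetected in wild type (34.43, detection p-value 0.0188) and detected in the knockout (52.20, 0.00376), which gives at least 1.22-fold. The mean of both Pim1 probes differed by 0.58, just short of the 1.5-fold line, and on the series matrix values the brighter probe differed by 0.45. Of the 3 Pim2 probes, 1 was detected, in the knockout only. It gave 34.33 in wild type and 57.54 in the knockout, a bound of at least 1.32-fold higher. The others were undetected on both arrays, at 17.13 and 35.84, and at 15.50 and 13.42. Pim2 lies on the X chromosome, and the part of the sample difference seen at Xist in its value was not tested.

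**Figure D3:**
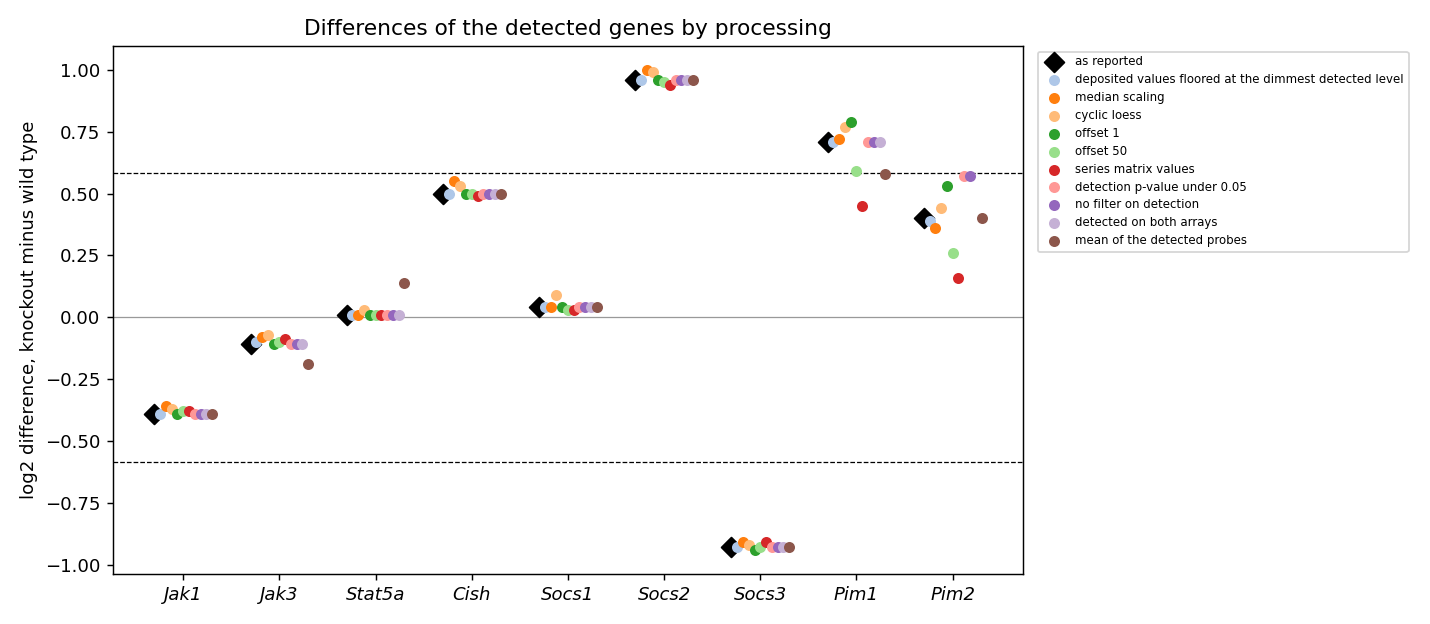
Log2 difference, knockout minus wild type (vertical axis), of each of the 9 detected genes (horizontal axis) as reported (black diamonds) and under 10 alternatives of processing (coloured points). Dashed lines mark 1.5-fold. Socs2 ranges from 0.94 to 1.0 and Socs3 from -0.94 to -0.91, whereas Pim1 ranges from 0.45 to 0.79 and crosses the line.

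Some markers of other cell types moved with these values, where 8.15% of all genes were higher and 6.77% lower by 1.5-fold. The marker lists were chosen with earlier results of these data known, so their counts are descriptions and no independent check. Of the 7 detected neutrophil markers, 5 were at least 1.5-fold lower in the knockout and none was higher by as much, with Mmp9 at 0.25 (309.0 against 382.6). Of these 7, Camp, Retnlg and Csf3r were detected in wild type only, and of the 4 detected on both arrays 3 were lower. The summed deposited intensity of the 11 on the array was 3321 in wild type and 978.8 in the knockout. S100a8 (-2.39) and S100a9 (-2.41) were lower as Socs3 was, and Elane and Cxcr2 were undetected on both arrays. All 6 detected mast cell and basophil markers were at least 1.5-fold higher, as Socs2 and Pim1 were. The summed intensity of the 8 on the array was 507.6 in wild type and 1494 in the knockout, with Ms4a2 and Cma1 undetected. Their part in the values of Socs2, Socs3, Cish and Pim1, or of the pathway genes named below, was not tested. Of the other lists, B cell markers had 2 of 3 detected genes higher, monocyte, macrophage and dendritic cell markers 2 of 4, and NK and CD8 T cell markers 3 of 6 with 1 lower. Both detected red cell genes were lower. None of the 6 detected reference genes reached 1.5-fold, and of the 4 detected stress genes 1, Fos (-0.71), was lower. In bulk samples, fewer cells of a type and less RNA per cell cannot be told apart.

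Upstream of the kinases, Il2ra, Il2rb and the brightest Il7r probe differed by at most 0.18, and 2 of the cytokines were higher in the knockout. Of the 16 listed gamma chain cytokines and receptors, 12 had a probe and 7 were detected. Among these 7, 2 were at least 1.5-fold higher and none lower (median 0.18), against 8.15% higher and 6.77% lower of all genes. Il2ra, the alpha chain used for the sort, gave 2008 in wild type and 2039 in the knockout (-0.02). Il2rb, the beta chain shared with interleukin 15, gave 661.7 and 778.6 (0.18), and the brightest Il7r probe 7217 and 8389 (0.09, and up to 0.55 at a dimmer probe). Of the 4 probes of Il15ra, the alpha chain of the interleukin 15 receptor, the brightest differed by 0.35, another, undetected in wild type, was higher by at least 1.58-fold, and the other two were undetected on both arrays. The cytokine gene Il4 gave 113.4 and 586.8 (2.19), and Il21, undetected in wild type, was higher by at least 1.76-fold. The part of other cell types, such as those of the mast cell and basophil markers, in these cytokine values was not tested. The count of higher genes was 1 with an offset of 50, on the series matrix values or among the 6 genes detected on both arrays, and 3 with detected probes averaged. Il2 and Il2rg, the common gamma chain, were not analysed here.

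Among the other JAK, STAT, SOCS and PIM genes, 2 were lower in the knockout by 1.5-fold, Stat3 and Socs4, and none was higher. The shares over all genes were 6.77% lower and 8.15% higher. Of the 6 other JAK and STAT genes, all detected, 1 was at least 1.5-fold lower and none higher (median -0.14). That 1 was Stat3, which acts downstream of interleukin 6 and interleukin 10, at -0.62 (2293 against 1521) at its brightest probe and -0.09 and 0.16 at the others. Stat6, which acts downstream of interleukin 4, differed by -0.58, just short of 1.5-fold, and Jak2 by 0.17. At their brightest probes Stat2 differed by 0.27, Tyk2 by -0.10 and Stat4 by -0.19, with 0.06 at another Stat4 probe. Of the other SOCS and PIM genes, 4 of 5 were detected, with Socs4 at least 1.5-fold lower (-0.60, 396.6 against 263.6), Pim3 at -0.41, Socs5 at -0.39 and Socs6 at -0.10. These 4 differences were all below 0, with a median of -0.40. Neither call held under every alternative: Socs4 fell short of 1.5-fold with cyclic loess, an offset of 50 or the series matrix values, Stat3 did so with detected probes averaged, and with an offset of 1 a further JAK or STAT gene was counted lower. The 10 detected phosphatases and other negative regulators ranged from -0.54 (Ptprc, which encodes CD45, 0.16 at its other probe) to 0.13 (Dusp6), and none reached 1.5-fold.

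Genes of the neighbouring PI3 kinase arm included 1 that was lower by 1.5-fold, as were 6.77% of all genes. Pik3r1, the regulatory p85 alpha subunit, gave 3543 in wild type and 1887 in the knockout (-0.95), and -0.71 at a second probe. Its dimmest probe was undetected in the knockout and at least 1.85-fold lower there. Pik3cd, the catalytic p110 delta subunit, differed by -0.55 at both of its detected probes. Of the 4 detected adaptors and PI3 kinase or MAP kinase arm genes, Pik3r1 was the 1 past 1.5-fold, and Shc1 (0.01) and Ptpn7 (0.39) were within it.

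Genes known as STAT5 targets in T cells went both ways. Of 20 detected, 4 were at least 1.5-fold higher and 3 at least 1.5-fold lower (median 0.11). The higher ones, with deposited intensities given as wild type against knockout, were Ifng, a T cell cytokine (105.2 against 529.9, 2.15), Il10, an inhibitory cytokine (100.4 against 357.1, 1.64), Id2, an inhibitor of E proteins (644.5 against 1422, 1.08), and Nfil3, a bZIP factor (659.3 against 1347, 0.97). The lower ones were Slc22a5, a carnitine transporter (1748 against 948.9, -0.92), Bcl6, a repressor that STAT5 is known to hold down (1227 against 677.8, -0.89), and Bcl2, a survival factor (2789 against 1663, -0.79). All 6 Bcl2 probes detected on both arrays were lower, by -0.78 to -1.58, and the other two were undetected on both. The list holds genes that STAT5 induces and genes that it represses, so its count has no single direction. Its shares rest on 4 genes and 3 genes of a list chosen with earlier results known, so nothing particular was read from them. Across the alternatives of processing, 4 to 6 genes of this list were higher and 3 to 4 lower. Myc, undetected in the knockout, had a bound of -0.58, just short of 1.5-fold. Lta differed by 0.41 at its brighter probe and 0.80 at the dimmer. At their brightest probes Foxp3, Il2ra, Osm, Ccnd2 and Il7r were all between -0.10 and 0.09. Of the 49 detected genes of all these lists together, listed genes left out, 6 were higher and 6 lower by 1.5-fold (12.2% each, against 8.15% and 6.77% of all genes), with a median of -0.02.

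**Figure D4:**
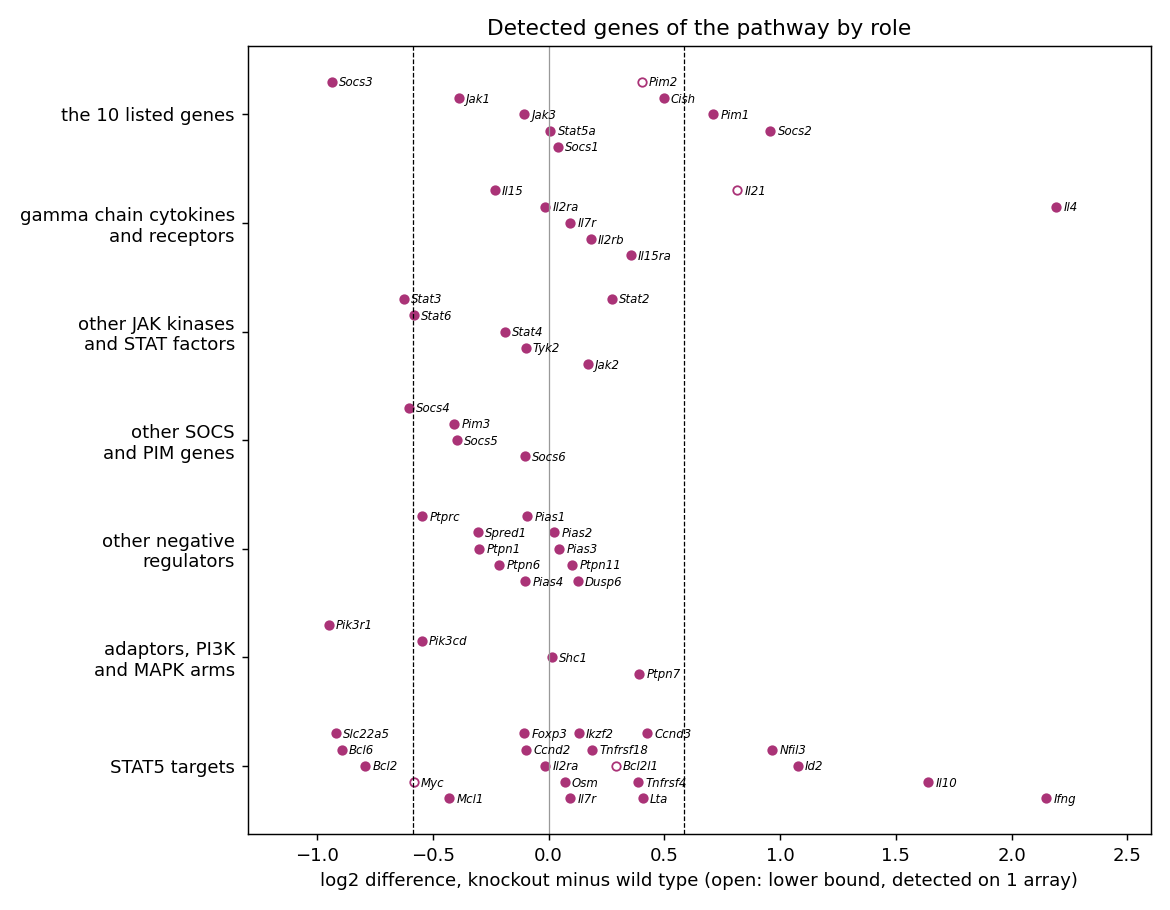
Log2 difference, knockout minus wild type (horizontal axis), of each detected gene in the 10 listed genes and in 6 lists of the pathway (rows), with open points for lower bounds of genes detected on 1 array and dashed lines at 1.5-fold. The receptor chains Il2ra, Il2rb and Il7r lie near 0, Socs2 and Socs3 lie on opposite sides, and the STAT5 targets spread from -0.92 (Slc22a5) to 2.15 (Ifng).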

How the data were processed

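Intensity values for every probe were deposited in a table whose header marks them as not normalized. The same deposited table gives each probe a detection p-value on each array. The deposited intensities include values below 0 (30.4% in wild type, 29.5% in the knockout), so a background had been subtracted. The scanner and its software are not named in the labels or headers. The deposited series matrix intensities are a straight-line function of that table (slopes 0.782 and 0.779). GEO's annotation of the platform named the probes and gave 1 symbol for 23978 probes. The 1719 probes without a single symbol entered no gene count.

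Intensities were corrected by normexp from the detection p-values, with an offset of 16, quantile normalized and put on the log2 scale (neqc steps, limma 3.58.1, R 4.3.3), and simulated arrays with known changes were used to test the script. A gene was its brightest probe detected on at least 1 array. A gene undetected on 1 array has a lower bound only, against the higher of its own value and the dimmest detected probe (5.80 in wild type, 5.81 in the knockout). Of the named genes, 6994 were detected on both arrays and 617 on 1. Neither SE nor p-value is possible with 1 array per group, and the number of arrays limits the precision. The members, the lists of pathway genes and of cell markers, and the rule for naming genes (every member, list genes past 1.5-fold, receptor chains, STAT factors and defining markers) were chosen with earlier results of these data known.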

Additional observations from a re-analysis of the deposited data

How the results depend on the processing

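Across 10 alternatives of background correction, normalization, offset, source of the values, detection filter and choice of probe, the number of listed genes at least 1.5-fold higher in the knockout stayed at 2 except on the series matrix values (1) and with detected probes averaged per gene (1). In both cases Pim1 fell short of the line. The series matrix keeps a constant in its intensities, which shrinks differences of dim genes. The number at least 1.5-fold lower was 1 under every alternative, and the median of the listed genes stayed between 0.02 and 0.14. Socs2 and Socs3 were past 1.5-fold in all 11 settings. Each has 1 probe, detected on both arrays, so the alternatives of detection filter and choice of probe could not change their values. The other alternatives process the same 2 arrays anew and are no replicate check. Of 179 values of single genes and probes under the alternatives, 9 moved by more than the SD between probes, all of Pim1 or Pim2, and none that was past 1.5-fold changed sign. The 179 values overlap, since under some alternatives a brightest probe was counted both for its gene and as a probe. Of all genes compared, 4.87% were at least 1.5-fold higher and 2.93% lower on the series matrix values, against 8.15% and 6.77%. Dim probes limit what can be said of Pim2 and Stat5b. No paired analysis was possible because each genotype has 1 array.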
